A study of Mus musculus with 12 samples.

Results

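The response described here is that of mouse bone marrow mesenchymal stem cells (MSCs) to conditioned medium from granulocytic myeloid-derived suppressor cells (G-MDSCs) when it was given together with transforming growth factor β1 (TGF-β1). The 3 libraries of cells that received TGF-β1 and G-MDSC supernatant were compared with the 3 libraries of cells that received TGF-β1 alone. Genes entered the comparison if they reached an FPKM of at least 1 (fragments counted on a gene's transcripts, scaled by their length and by the depth of the library) in at least 3 of the 6 untreated and TGF-β1 libraries, so that a transcript seen only after supernatant was added could not enter. By this rule 11619 of the 55401 genes in the table were tested and 43782 were left out. The series holds 12 libraries of poly(A) RNA in 4 groups of 3: untreated MSCs, MSCs given TGF-β1 at 5 ng/mL, and MSCs given the same TGF-β1 together with supernatant of either G-MDSCs or monocytic MDSCs (M-MDSCs). All 4 groups are bone marrow MSCs of C57BL/6 mice from a commercial supplier, with no genetic change named. The MDSCs were mouse bone marrow cells cultured with GM-CSF and IL-6 and sorted as CD11b+Ly6G+Ly6Clow (granulocytic) or CD11b+Ly6G-Ly6Chigh (monocytic) cells, so the supernatants came from cells made in culture and not from cells of a diseased animal. Nothing in the labels says whether the 3 libraries of a group came from separate cultures or separate supernatants, so each p-value measures the spread between these libraries only. There is no group given supernatant without TGF-β1.

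TGF-β1 is the cytokine that turns mesenchymal cells towards myofibroblasts. It signals through receptor serine kinases to SMAD transcription factors, and its targets include smooth muscle actin, the other proteins of contractile stress fibres, collagens and the enzymes that crosslink them. Interferons act through other receptors, whose kinases JAK1, TYK2 and JAK2 phosphorylate STAT transcription factors. With IRF9 these form a complex that binds the interferon-stimulated response element (ISRE) in the promoters of interferon-stimulated genes, whose products block viral replication, sense foreign nucleic acid and raise antigen presentation on MHC class I. STAT2, IRF9 and IRF7 are themselves products of interferon-stimulated genes, and USP18 is a brake on the type I interferon receptor.

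The labelled cell type was checked on surface markers that define MSCs. Itgb1 (CD29) lay between 370.5 and 388 FPKM, Cd44 between 48.5 and 65.3, and Ly6a (Sca-1) between 13.0 and 69.2 in the 6 TGF-β1 and G-MDSC libraries, whereas Kit (CD117) was at or below 0.0117 and the endothelial marker Pecam1 (CD31) at or below 0.218. The totals of the 12 libraries ran from 73977669 to 84565450 counts. The libraries with supernatant also held transcripts of other tissues. Albumin (Alb), the main plasma protein made by the liver, was listed at 34.4, 34.2 and 37.2 FPKM in the 3 G-MDSC libraries and at 0 in all 6 libraries without supernatant. Kap, an androgen-regulated protein of the kidney, was at 37.1, 51.2 and 47.3 with G-MDSC supernatant and likewise at 0 without it. All 10 genes of a list of kidney and liver markers reached an FPKM of 1 in a G-MDSC library, and their summed level was 114 to 128 FPKM, against 0 to 0.0488 with TGF-β1 alone. With M-MDSC supernatant the same sum ran from 17.2 to 142, and Alb was at 0, 0 and 31.6, so replicate 3 of that group stood apart from its replicates 1 and 2. The summed level of 19 neutrophil and G-MDSC markers was 3.05 to 8.58 FPKM with G-MDSC supernatant and 1.14 to 1.398 with TGF-β1 alone, and 6 of the 19 were at 0 in every G-MDSC library. That of 17 monocyte and macrophage markers was 27.7 to 30.7 against 15.7 to 17.03, none of the 17 being at 0 throughout. For 6 erythroid markers it was 2.12 to 3.73 against 0 to 0.0784, with 1 at 0 throughout, for 7 endothelial markers 0.512 to 0.662 against 0.347 to 0.395, and for 6 lymphocyte markers 0.0390 to 0.0823 against 0 to 0.0847, with 3 at 0 throughout. The defining neutrophil gene S100a9 was at 0, 0 and 3.40 in the G-MDSC libraries. The part of these transcripts in the gene changes reported here was not tested. In libraries made from a whole culture, fewer cells of a type and less RNA per cell cannot be told apart.

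**Figure D1:**
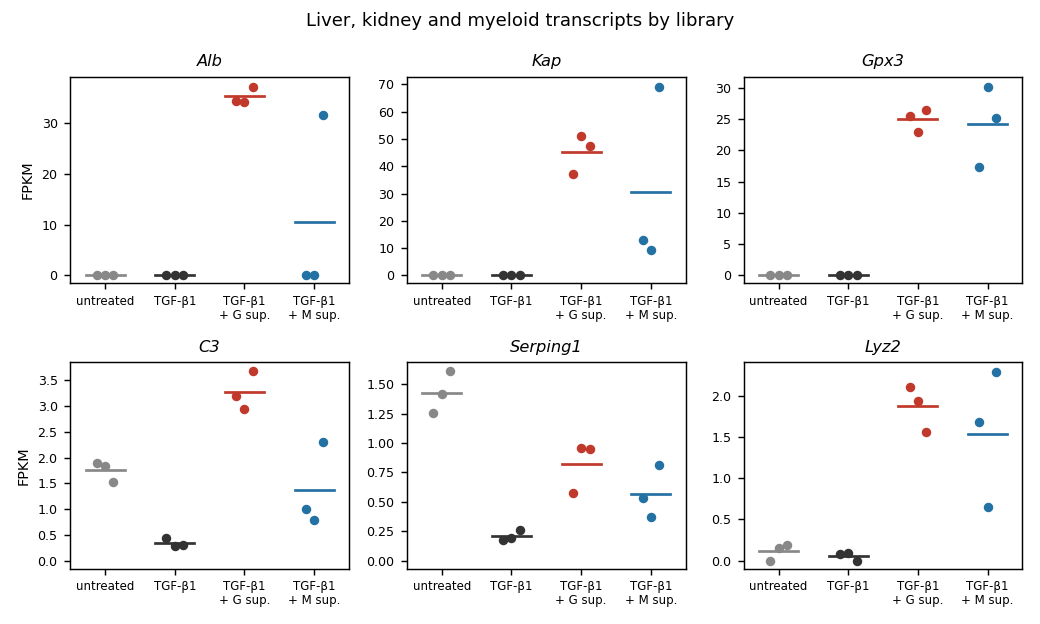
Expression (FPKM, linear axis, 1 point per library, horizontal line at the group mean) of liver, kidney and myeloid genes in the 4 groups of 3 libraries, of which C3 and Serping1 passed the gene filter and the others did not. Alb, Kap, Gpx3 and the macrophage and neutrophil gene Lyz2 lie at or near 0 without supernatant, C3 and Serping1 do not, and Alb in the M-MDSC group was seen in replicate 3 alone.

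Adding G-MDSC supernatant raised interferon-stimulated genes, several chemokines and MHC class I genes, and lowered contractile and matrix genes by smaller margins. At an adjusted p under 0.05 (edgeR, Benjamini-Hochberg over 11619 genes), 312 genes rose, which is 2.69% of those tested, and 277 fell, which is 2.38%. The rises were the larger changes, with a median log2 fold change of 0.65 among the 312 against -0.33 among the 277, and the median over all genes tested was -0.013. By the rule the study used, a fold above 2 or below 0.5 with an unadjusted p under 0.05, 132 genes were higher (1.14%) and 27 lower (0.232%), of which 105 and 8 also passed the adjusted threshold. In 12.4% of all genes tested the 3 G-MDSC libraries lay above all 3 TGF-β1 libraries, and in 9.83% they lay below. The number of falls rested on the libraries used. It was 158, 130 and 161 without TGF-β1 replicate 1, 2 or 3 and 146, 167 and 238 without G-MDSC replicate 1, 2 or 3, while the rises numbered 244 to 268. With library totals in place of TMM factors the split was 368 rises to 207 falls.

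**Figure D2:**
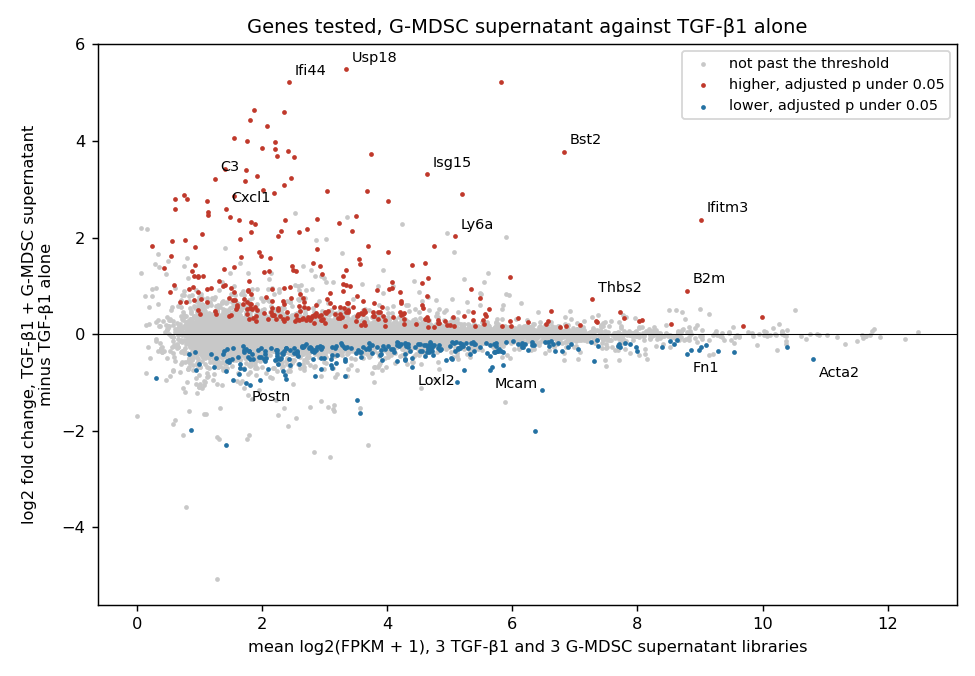
Log2 fold change of TGF-β1 with G-MDSC supernatant over TGF-β1 alone against mean expression, 1 point per tested gene reported here, with genes past an adjusted p of 0.05 in colour. The rises reach far above the cloud, and the falls lie mostly close to it.

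**Figure D3:**
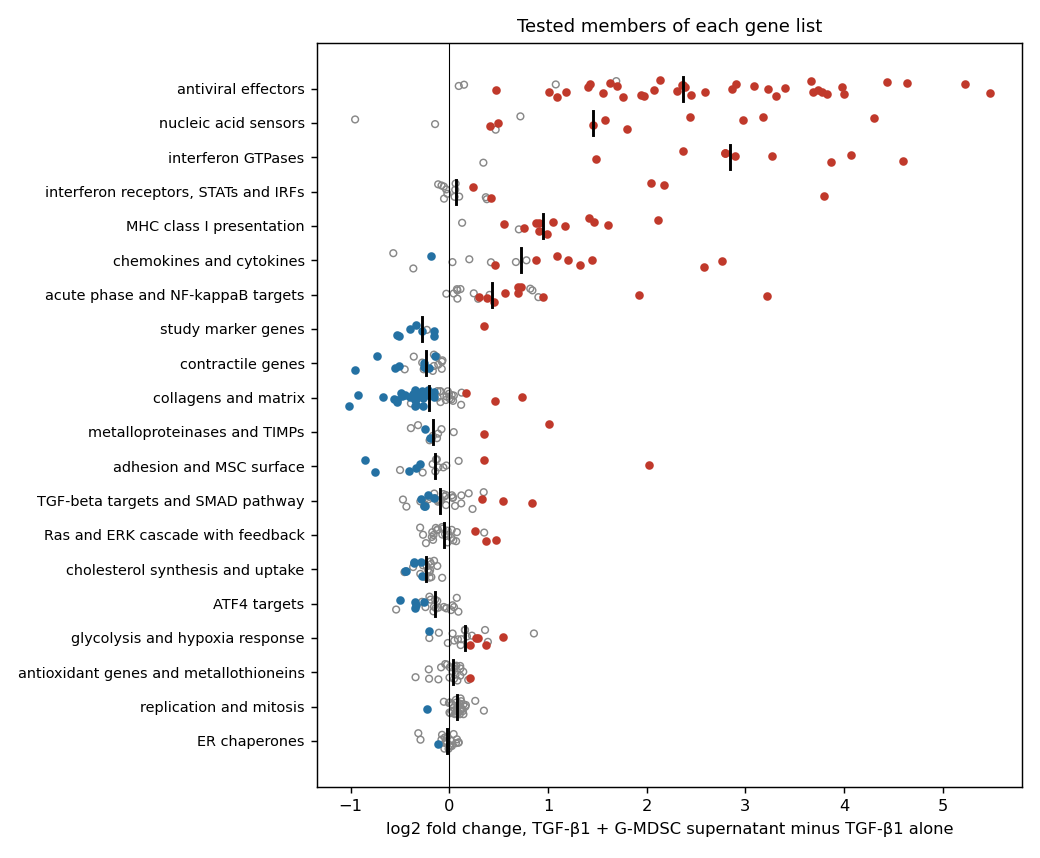
Log2 fold changes of the tested members of each gene list that are reported here, 1 point per gene, with the median of the points as a bar and genes past an adjusted p of 0.05 in colour. Most interferon list members lie to the right of 0, many of the receptors, STATs and IRFs close to it, and the contractile, matrix and cholesterol lists lie a little to its left.

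The antiviral effector genes rose nearly throughout. Of the 41 measured genes of this list 37 rose and none fell, with a median log2 fold change of 2.37, and the 37 calls held whichever library was left out. Their promoters give the sequence context of the response. The promoters of 4 of the rising genes are shown because they hold repeats of the ISRE core, the letters GAAANNGAAA searched on both strands with overlapping matches counted. Isg15 encodes a ubiquitin-like protein, Ifit1 a protein that binds viral RNA, Bst2 (tetherin) a protein that holds budding virus at the cell surface, and Gbp3 a guanylate-binding GTPase. The windows are from RefSeq on GRCm38.p6, cover 250 bases before to 50 bases after a listed start, and read 5′ to 3′ on the strand of the gene. They lie at chr4:156200769-156201068 (minus strand), chr19:34640639-34640938 (plus strand), chr8:71537423-71537722 (minus strand) and chr3:142559794-142560093 (plus strand, 1 of 2 listed starts). Capitals mark the letters covered by a match, of which there were 3 in Isg15 and 2 in each of the others.
Isg15: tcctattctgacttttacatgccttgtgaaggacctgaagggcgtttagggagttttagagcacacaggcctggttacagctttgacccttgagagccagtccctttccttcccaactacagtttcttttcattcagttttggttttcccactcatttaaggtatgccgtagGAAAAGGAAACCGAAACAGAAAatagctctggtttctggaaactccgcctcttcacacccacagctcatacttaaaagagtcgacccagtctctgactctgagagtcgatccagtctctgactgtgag
Ifit1: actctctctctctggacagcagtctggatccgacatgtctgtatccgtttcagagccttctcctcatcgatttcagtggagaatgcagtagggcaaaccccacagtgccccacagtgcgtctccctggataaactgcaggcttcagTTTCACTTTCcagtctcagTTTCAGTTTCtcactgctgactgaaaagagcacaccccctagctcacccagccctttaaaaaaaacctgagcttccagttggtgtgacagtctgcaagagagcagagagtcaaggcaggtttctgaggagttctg
Bst2: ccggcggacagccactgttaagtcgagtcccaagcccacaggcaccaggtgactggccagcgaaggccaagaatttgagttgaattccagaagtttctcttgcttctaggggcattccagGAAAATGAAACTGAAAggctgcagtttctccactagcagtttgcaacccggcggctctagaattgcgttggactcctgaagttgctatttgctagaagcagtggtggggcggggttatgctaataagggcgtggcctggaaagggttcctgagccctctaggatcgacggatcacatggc
Gbp3: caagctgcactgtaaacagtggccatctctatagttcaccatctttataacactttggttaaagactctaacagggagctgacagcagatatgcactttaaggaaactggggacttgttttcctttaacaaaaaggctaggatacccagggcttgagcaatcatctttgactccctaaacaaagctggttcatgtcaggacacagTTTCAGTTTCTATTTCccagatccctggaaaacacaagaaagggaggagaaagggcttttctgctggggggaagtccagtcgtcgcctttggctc

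Counted to the leftmost letter of a match, the first 2 matches of Isg15 lay 78 and 72 bases before the start, those of Ifit1 85 and 104, those of Bst2 130 and 124 and those of Gbp3 39 and 45. The matches of Ifit1 and Gbp3 are on the strand opposite the gene, so the reverse complement of the core is in capitals there. Of the 72 genes reported here that rose in the 5 interferon lists (effectors, sensors, GTPases, signalling and MHC class I), 59 had a promoter in the RefSeq table. The core was found in 31 of these 59, which is 52.5%, and in 2 of 20 members that did not pass the test. Among all tested genes with a promoter it was found in 299 of 8199, or 3.65%, and among all genes of the promoter table in 1079 of 27025, or 3.99%. By list, the core was found in 14 of 30 rising effectors, 4 of 6 sensors, 7 of 7 GTPases, 1 of 5 signalling genes and 5 of 11 MHC class I genes. A match describes these letters in this window and no binding was measured.

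Usp18 (chr6:121245906-121270917, GRCm38) had the largest rise of all genes that met the rule for naming. It was at 0.788, 1.46 and 0.985 FPKM with TGF-β1 and at 50.1, 50.4 and 47.4 with G-MDSC supernatant added. The lowest library with supernatant was far above the highest without it, a fitted 44.7-fold difference (log2 fold change 5.48, SE 0.21, adjusted p = 4.89e-08). Untreated cells had 5.21, 5.24 and 6.79, so that Usp18 was lowest under TGF-β1 alone. Ifi44, an interferon-stimulated gene of unsettled function, rose from 0.393, 0.413 and 0.662 to 20.8, 17.5 and 17.8 FPKM (log2 fold change 5.23, SE 0.23, adjusted p = 1.04e-07). Isg15 (chr4:156199455-156200796) rose from 6.79, 6.95 and 8.22 to 77.2, 76.5 and 67.5 FPKM (log2 fold change 3.31, SE 0.12, adjusted p = 3.22e-08). Neither gene's groups overlapped. Ifit1 (chr19:34640871-34650009) was at 3.86, 4.30 and 4.55 with TGF-β1 and at 23.5, 22.6 and 24.3 with the supernatant (log2 fold change 2.45, SE 0.067, adjusted p = 3.30e-09). Its 3 libraries with supernatant lay just below the untreated ones, at 26.5, 25.2 and 27.1. Bst2 (chr8:71534255-71537456), the effector named here with the highest FPKM, rose from 25.9, 30.99 and 33.6 to 421, 443 and 395 FPKM (log2 fold change 3.78, SE 0.092, adjusted p = 1.76e-09), well past its untreated level of 71.6, 70.2 and 76.9.

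Other large rises in the list were those of Phf11d (4.63), Xaf1 (4.44), which antagonises inhibitors of apoptosis, Trim30a (4.001) and the oligoadenylate synthetases Oas1g (3.98) and Oas1a (3.74), which activate RNase L. Oas1a and Oas1g, like Ifit3 and Ifit3b, are close copies of each other between which reads can be split, so the value of each alone is uncertain. The 4 members that did not pass include Trim25, a ubiquitin ligase of the RIG-I pathway (log2 fold change 1.69, adjusted p = 0.115), the oligoadenylate synthetase-like gene Oasl1 (1.08, adjusted p = 0.106) and Samhd1, which degrades nucleotides needed for reverse transcription (0.15, adjusted p = 0.207). The smallest rise of the list was that of Ifit2, which went from 6.32, 6.24 and 5.94 to 8.38, 8.25 and 9.41 FPKM (log2 fold change 0.47, SE 0.083, adjusted p = 0.00721) and remained below all 3 untreated libraries.

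Many effectors were lower with TGF-β1 alone than in untreated cells. Of the 41 effectors 14 did not reach an FPKM of 1 in all 3 TGF-β1 libraries and passed the filter with the help of the untreated ones, so that a lower level with TGF-β1 was built into their entry. The other 27 were at 1 or above in all 6 libraries without supernatant. Of these 27, 22 were lower with TGF-β1 than in untreated cells and none was higher, where 17.2% and 16.7% of all genes at 1 or above in those 6 libraries were (18.4% and 16.5% of all genes tested). Against the same untreated cells, 18 of the 27 were higher with TGF-β1 plus G-MDSC supernatant and 4 were lower, where 16.5% and 18% of the same genes were. Against TGF-β1 alone, 23 of the 27 rose with the supernatant, where 2.29% did. Each pair of these comparisons shares a group of libraries, so they are not independent of one another. In the libraries labelled M-MDSC replicates 1 and 2 the kidney and liver markers summed to 18.2 and 17.2 FPKM. Kap was at 13.1 and 9.20 in these libraries, Gpx3 at 17.4 and 30.2 and Alb at 0. Isg15 was at 122 and 121 FPKM there and Usp18 at 74.3 and 72.7, all above the TGF-β1 libraries. In M-MDSC replicate 3, where the sum was 142, both genes also lay above the TGF-β1 libraries. The part of the kidney and liver transcripts in the Isg15 and Usp18 levels was not tested.

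**Figure D4:**
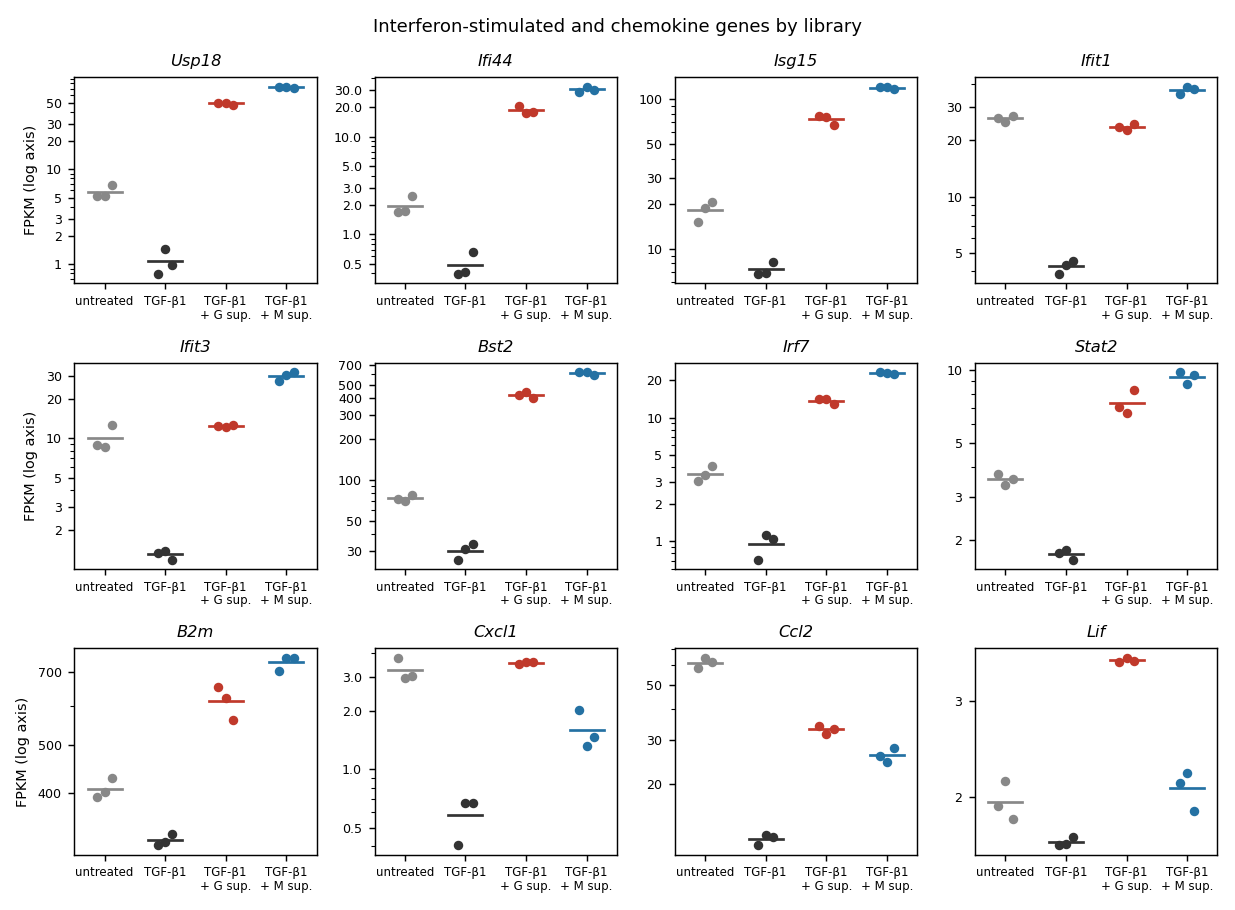
FPKM (log axis) of 12 interferon-stimulated and cytokine genes in each library of the 4 groups, with a line at the group mean. The 9 interferon-pathway genes (Usp18 to B2m) are lowest with TGF-β1 alone and rise above it in every library with supernatant, highest with M-MDSC supernatant, whereas Cxcl1, Ccl2 and Lif lie higher with G-MDSC than with M-MDSC supernatant. Usp18, Ifi44 and Irf7 passed the filter with the help of the untreated libraries, so a lower level with TGF-β1 was built into their entry.

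Of 13 measured sensors of foreign nucleic acid 9 rose and none fell, and 7 of the 9 kept the call whichever library was left out. Zbp1, a sensor of Z-form nucleic acid, was at 0.584, 0.517 and 0.502 FPKM with TGF-β1 and 11.1, 10.7 and 10.7 with the supernatant (log2 fold change 4.31, SE 0.11, adjusted p = 1.84e-09), with no overlap. Dhx58 (LGP2) rose by a log2 fold change of 3.18, Ifi203 by 2.43, Tlr3, the endosomal receptor for double-stranded RNA, by 1.80, Ifih1 (MDA5) by 1.57 and Ifi204 by 1.45. The rise of Tlr2 (0.49) was lost without TGF-β1 replicate 1 or 2 or G-MDSC replicate 1, 2 or 3 (adjusted p 0.0815 to 0.122), and that of Myd88, the adaptor of most Toll-like receptors (0.41), was lost without TGF-β1 replicate 2 or 3 or G-MDSC replicate 1, 2 or 3 (adjusted p 0.0608 to 0.0941). The interferon-inducible GTPases, which attack the vacuoles of intracellular pathogens, rose in 9 of 10 measured genes, all of them whichever library was left out, with a list median of 2.84. Gbp3 rose from 0.695, 0.517 and 0.645 to 15.9, 14.4 and 15.3 FPKM (log2 fold change 4.59, SE 0.13, adjusted p = 5.46e-09). The other members with the largest rises were Irgm2 (4.07), Igtp (3.87), Gvin1 (3.27), Gbp9 (2.89) and Tgtp2 (2.80), of which Tgtp2 has a close copy in Tgtp1. The member that did not pass was Ifi47 (0.35, adjusted p = 0.685). Of the 10 genes 8 did not reach an FPKM of 1 in all 3 TGF-β1 libraries and passed the filter with the help of the untreated ones, so no count of this list against untreated cells is given.

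Among the signalling genes the transcription factors Irf7, Irf9 and Stat2 rose, and no receptor chain or JAK passed the test. Of 18 measured interferon receptors, JAKs, STATs and IRFs 6 rose and none fell, with a list median of 0.082. Irf7, the amplifier of type I interferon transcription, went from 0.713, 1.12 and 1.05 to 14.2, 13.99 and 12.96 FPKM (log2 fold change 3.80, SE 0.16, adjusted p = 8.67e-08). Stat2, a subunit of the ISRE-binding complex, was at 1.77, 1.83 and 1.67 with TGF-β1 and 7.07, 6.67 and 8.28 with the supernatant (log2 fold change 2.04, SE 0.087, adjusted p = 9.40e-08). For both genes every library with supernatant was above every TGF-β1 library and every untreated library. Irf9, another subunit of that complex, rose by 2.18. Socs3, the feedback inhibitor of gp130 receptors, rose by 0.42, and the rise of Stat3 (0.24) was lost without TGF-β1 replicate 1, 2 or 3 or G-MDSC replicate 2 or 3 (adjusted p 0.0558 to 0.0928). Ifnar2, a chain of the type I receptor, differed by 0.10 (95% interval -0.063 to 0.26) and Jak1 by 0.064 (-0.029 to 0.16). Ifngr2, a chain of the interferon-γ receptor, had a log2 difference of 0.37 with an adjusted p of 0.0571, which became 0.0359 without G-MDSC replicate 1.

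Of 14 measured genes of antigen presentation on MHC class I 12 rose, none fell, and all 12 calls held whichever library was left out. The list median was 0.95. B2m, the invariant light chain, was at 315, 320.2 and 332 FPKM with TGF-β1, at 655, 622 and 561 with G-MDSC supernatant and at 393, 402 and 430.3 in untreated cells (log2 fold change 0.90, SE 0.057, adjusted p = 2.55e-06). The supernatant libraries were the highest of the 3 groups and did not overlap with the others. The heavy chains H2-Q4 (2.12), H2-T23 (1.46), H2-T22 (1.41) and H2-D1 (1.17) rose, with the caveat that reads of such similar genes can be shared between them. Tap1 and Tap2, which form the peptide transporter, rose by 1.61 and 1.05. Of the 13 members at an FPKM of 1 or above in all 6 libraries without supernatant, 12 were lower with TGF-β1 alone than in untreated cells. Among all genes tested at that level 17.2% were. With supernatant added 8 of the 13 were higher than in untreated cells and none was lower, where 16.5% and 18% of such genes were.

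Chemokines and cytokines rose in 8 of 16 measured genes, with a list median of 0.73, and 1 fell. Cxcl5, a neutrophil attractant, went from 0.311, 0.259 and 0.512 to 2.69, 2.48 and 2.38 FPKM (log2 fold change 2.76, SE 0.24, adjusted p = 3.98e-05). Cxcl1, another ligand of the same receptor, went from 0.405, 0.669 and 0.669 to 3.48, 3.60 and 3.60 (log2 fold change 2.58, SE 0.22, adjusted p = 3.61e-05). Both were above all TGF-β1 libraries, Cxcl5 at a lower level than in untreated cells (7.76, 5.79 and 7.36) and Cxcl1 at a level inside the untreated range (3.78, 2.95 and 3.02). Both passed the filter through the untreated libraries alone, so a level with TGF-β1 lower than in untreated cells was built into their entry. Of the 16 genes 6 did not reach an FPKM of 1 in all 3 TGF-β1 libraries. Ccl2, the main monocyte attractant, was at 11.3, 12.5 and 12.3 with TGF-β1, 34.3, 31.9 and 33.3 with supernatant and 58.5, 64.4 and 61.9 untreated (log2 fold change 1.44, SE 0.065, adjusted p = 1.44e-07 between the first and second). Its groups did not overlap and the supernatant group lay between the others. Ccl7 rose by 1.32 and the interferon-inducible Cxcl10 by 1.20. Lif, a cytokine of the IL-6 family, rose from 1.63, 1.64 and 1.68 to 3.55, 3.61 and 3.56 FPKM (log2 fold change 1.09, SE 0.083, adjusted p = 1.29e-05) and was then also above the untreated libraries (1.92, 2.14 and 1.82). Cxcl12, which holds blood stem cells in the marrow, fell by 0.19 on the log2 scale, a call lost without TGF-β1 replicate 2 or 3 or G-MDSC replicate 1 (adjusted p 0.0819 to 0.103), and the rise of Il11 (0.47) was lost without G-MDSC replicate 1 (adjusted p 0.0518). Ccl5 (0.20, adjusted p = 0.595) and Cxcl16 (0.67, adjusted p = 0.0672) did not pass.

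In the list of acute phase and NF-κB target genes 10 of 22 measured members rose, none fell and 7 calls held whichever library was left out, with a list median of 0.43. Complement component C3 was at 0.445, 0.281 and 0.306 FPKM with TGF-β1 and 3.19, 2.94 and 3.67 with the supernatant (log2 fold change 3.22, SE 0.37, adjusted p = 3.89e-04). Its M-MDSC libraries were at 1.01, 0.798 and 2.30, the highest being replicate 3, which was also the M-MDSC library with Alb. Liver and kidney make C3 as well, and the 10 kidney and liver markers moved with it (114 to 128 FPKM in sum against at most 0.0488). Their part in the C3 value was not tested. Serping1, the inhibitor of complement C1, rose from 0.176, 0.193 and 0.263 to 0.573, 0.954 and 0.948 FPKM (log2 fold change 1.92, SE 0.31, adjusted p = 0.00418), and its M-MDSC libraries, at 0.529, 0.371 and 0.812, were again highest in replicate 3. C1ra rose by 0.95, Nfkbiz, a cofactor of NF-κB, by 0.73, and Il4ra by 0.69. Relb (0.70) lost its call without TGF-β1 replicate 2 or 3 or G-MDSC replicate 1 (adjusted p 0.0553 to 0.0685). Cd14, a co-receptor for bacterial endotoxin that was on the monocyte list, rose from 12.4, 14.4 and 14.6 to 21.8, 23.6 and 22.3 FPKM (log2 fold change 0.69, SE 0.077, adjusted p = 3.44e-04). It was already at 22.8, 23.5 and 22.7 in untreated cells, where the 17 monocyte and macrophage markers together summed to 25.5 to 27.5.

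The study's own marker genes of the TGF-β1 response are the 9 genes Acta2, Col1a1, Col3a1, Col5a1, Col5a2, Col6a3, Fn1, Ccn2 and Timp1. The study named them in describing these same libraries and how it picked them is not stated, so their direction is not taken as independent evidence. All 9 were higher with TGF-β1 than in untreated cells, and with G-MDSC supernatant 7 were lower than with TGF-β1 alone, 1 was higher and 1 did not pass, with a list median of -0.27. None of the 8 changes reached a fold of 2. Acta2 (chr19:34241090-34255590, GRCm38), smooth muscle actin, was at 1436, 1623 and 1525 FPKM in untreated cells, 2082, 2175 and 2113 with TGF-β1 and 1512, 1591 and 1446 with the supernatant. The supernatant libraries were all below the TGF-β1 libraries and overlapped with the untreated ones (log2 fold change -0.51, SE 0.054, adjusted p = 2.21e-04 against TGF-β1). Col6a3, a chain of collagen VI, was at 35.9, 35.98 and 33.96 with TGF-β1 and 24.4, 22.9 and 27.3 with the supernatant (log2 fold change -0.53, SE 0.080, adjusted p = 0.00284). These calls held whichever library was left out.

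Each of the other 5 falls among the markers lost its call in some of the fits that left out 1 library. Fn1, fibronectin, was at 546, 499 and 477 and 368, 364 and 438 FPKM (log2 fold change -0.40, SE 0.078, adjusted p = 0.0131), a call lost without TGF-β1 replicate 1 or G-MDSC replicate 1 or 2 (adjusted p 0.0552 to 0.0640). Ccn2 (CTGF), a matricellular target of SMADs and YAP, was at 1399.7, 1551 and 1455 and 1245, 1264 and 1193 (log2 fold change -0.27, SE 0.053, adjusted p = 0.0128), lost without TGF-β1 replicate 2 or 3 (adjusted p 0.0569 to 0.0891). In both genes the groups did not overlap. Col5a1 (-0.34) lost its call without TGF-β1 replicate 1 or 2 or G-MDSC replicate 1 or 2 (adjusted p 0.0703 to 0.114), Col5a2 (-0.15) without TGF-β1 replicate 1, 2 or 3 or G-MDSC replicate 1 or 2 (adjusted p 0.0551 to 0.0990) and Col3a1 (-0.15) without TGF-β1 replicate 1, 2 or 3 or G-MDSC replicate 2 or 3 (adjusted p 0.0570 to 0.228). Col1a1, the main chain of collagen I, was at 481, 523 and 492 FPKM untreated, 1032, 1042 and 1026 with TGF-β1 and 917, 904 and 869 with the supernatant. Its supernatant libraries lay below the TGF-β1 libraries and far above the untreated ones, and the difference did not pass (log2 -0.23, 95% interval -0.37 to -0.086, adjusted p = 0.0741). It passed when only these 2 groups were fitted (adjusted p = 0.0423) and with DESeq2 (adjusted p = 0.0388). Timp1, an inhibitor of metalloproteinases, rose from 863, 901 and 914 to 1256, 1147 and 1073 (log2 fold change 0.35, SE 0.053, adjusted p = 0.00273).

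**Figure D5:**
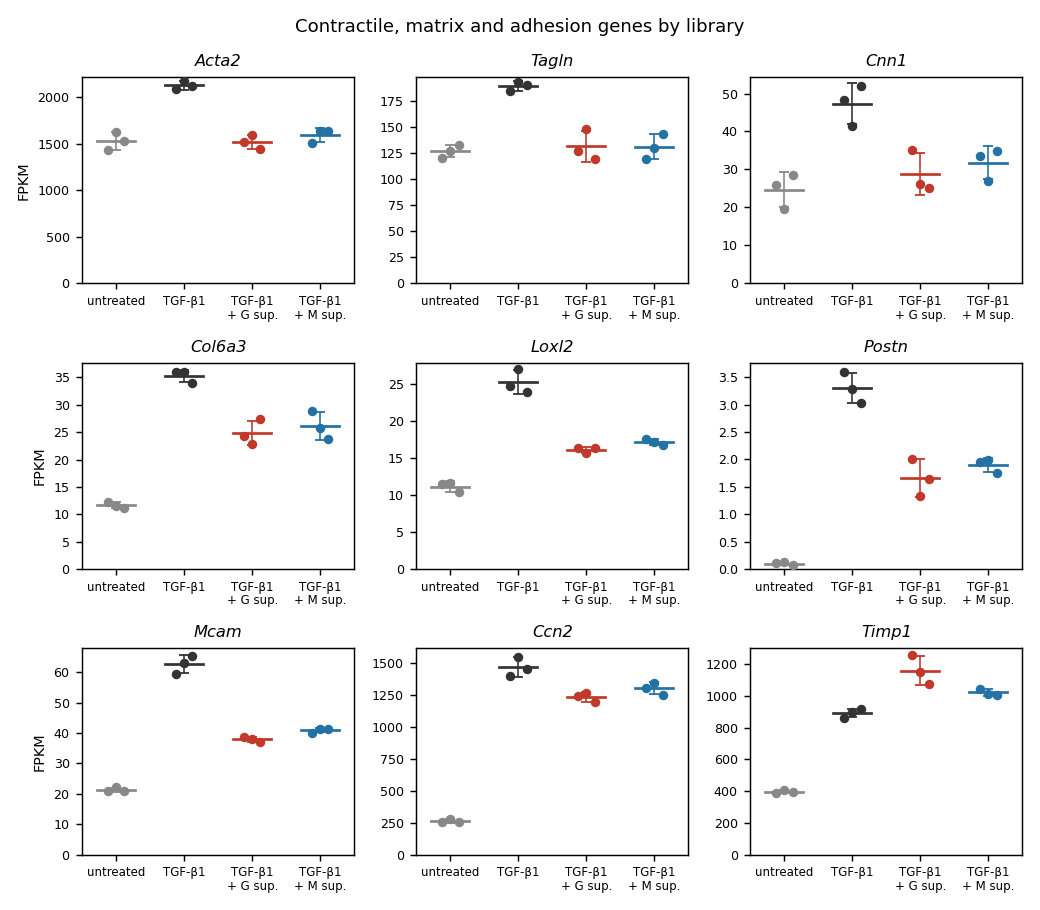
FPKM (linear axis from 0) of contractile, matrix and surface genes in each library of the 4 groups, with the group mean and SD (n = 3). Acta2 and Tagln with G-MDSC supernatant lie below TGF-β1 alone and near the untreated libraries.

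Contractile genes fell in 9 of 21 measured members and rose in none, with a list median of -0.24, and the calls of Acta2, Tagln and Tpm1 held whichever library was left out. Tagln (SM22), an actin-bundling protein of smooth muscle, was at 120.5, 127 and 132 FPKM untreated, 184, 193 and 190.1 with TGF-β1 and 127, 148 and 119.6 with the supernatant (log2 fold change -0.55, SE 0.082, adjusted p = 0.00262). Its supernatant libraries were below all 3 TGF-β1 libraries. Tpm1, a tropomyosin, fell by 0.24 on the log2 scale. Actg2, the enteric actin, had the largest fall of the list (-0.96), lost without TGF-β1 replicate 2 or 3 or G-MDSC replicate 1, 2 or 3 (adjusted p 0.0537 to 0.0729). Cnn1, calponin, fell from 48.3, 41.5 and 52.1 to 35.3, 26.1 and 25.2 (log2 fold change -0.73, SE 0.17, adjusted p = 0.0312), lost without TGF-β1 replicate 1 or 3 or G-MDSC replicate 2 or 3 (adjusted p 0.0919 to 0.115). The call of Tpm2 (-0.26) was lost without TGF-β1 replicate 2 (adjusted p 0.0501), and that of Myh9 (-0.25), the heavy chain of non-muscle myosin, without TGF-β1 replicate 1 or 2 or G-MDSC replicate 1 or 2 (adjusted p 0.108 to 0.131). Myl9 (224, 136 and 241 against 172, 178 and 159 FPKM, log2 -0.26, adjusted p = 0.627) and Vcl (log2 -0.45, adjusted p = 0.145) did not pass, and the spread of Myl9 among the TGF-β1 libraries was wider than the gap between the groups. After the supernatant 4 of the 21 genes were higher than in untreated cells and 3 were lower, shares near the 16.3% and 18.8% of all tested genes.

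Of 50 measured collagens and other matrix genes 25 fell and 3 rose, with a list median of -0.21, and 12 of the falls held whichever library was left out. Postn, periostin, went from 3.59, 3.28 and 3.03 to 2.01, 1.32 and 1.64 FPKM, with 0.103, 0.120 and 0.0692 in untreated cells (log2 fold change -1.01, SE 0.18, adjusted p = 0.00766 against TGF-β1). Postn passed the filter through the TGF-β1 libraries alone, so its rise over untreated cells was built into its entry. Its libraries with supernatant lay below all those with TGF-β1 alone. Loxl2, a crosslinker of collagen, fell from 24.8, 27.03 and 23.96 to 16.4, 15.7 and 16.4 (log2 fold change -0.67, SE 0.058, adjusted p = 4.38e-05). The collagen VI chain Col6a2 fell by 0.56 and Col11a1 by 0.53. Fmod, fibromodulin, which binds collagen I fibrils, went from 5.94, 6.24 and 5.06 to 3.35, 3.08 and 2.79 (log2 fold change -0.93, SE 0.19, adjusted p = 0.0167), lost without TGF-β1 replicate 1 or 2 or G-MDSC replicate 2 or 3 (adjusted p 0.0566 to 0.0775). Thbs2, thrombospondin 2, moved the other way, from 136, 107 and 115 to 181, 199 and 225 FPKM (log2 fold change 0.73, SE 0.10, adjusted p = 0.00188), with 383, 368 and 376 in untreated cells, between which and TGF-β1 the supernatant group lay without overlap. Has2, the hyaluronan synthase, did not pass (0.12, adjusted p = 0.234). Against untreated cells 38 of the 50 genes were higher with TGF-β1 alone, where 16.5% of all genes tested were. Of these 38, 31 were also higher with TGF-β1 and supernatant. Among all genes tested, 1441 of the 1913 genes higher with TGF-β1 alone were. Both comparisons share the untreated libraries, so they are not independent of each other. Of the 50 genes 3 did not reach an FPKM of 1 in all 3 untreated libraries.

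Surface and adhesion genes fell in 5 of 17 measured members, all 5 whichever library was left out, and rose in 2, with a list median of -0.14. Itga11, a collagen-binding integrin, went from 5.81, 5.65 and 5.09 to 3.24, 2.90 and 3.16 FPKM (log2 fold change -0.85, SE 0.080, adjusted p = 7.50e-05). Mcam (CD146), a marker of perivascular MSCs, went from 59.5, 63.2 and 65.4 to 38.6, 37.9 and 37.2 (log2 fold change -0.75, SE 0.042, adjusted p = 8.31e-07). Both were without overlap. Pdgfrb (-0.41), the receptor that marks pericytes and activated fibroblasts, Cdh11 (-0.34) and Itga3 (-0.30) also fell. Ly6a (Sca-1), itself interferon-inducible, had dropped from 241, 243 and 251 FPKM in untreated cells to 16.7, 12.99 and 18.8 with TGF-β1 and was at 63.3, 68.4 and 69.2 with the supernatant (log2 fold change 2.03, SE 0.12, adjusted p = 1.37e-06). Its 3 groups did not overlap. Pdgfra rose by 0.36, lost without TGF-β1 replicate 2 or 3 or G-MDSC replicate 1 or 3 (adjusted p 0.0765 to 0.0937), and Itgb1 did not pass (-0.060, 95% interval -0.13 to 0.013). Of 13 metalloproteinases and TIMPs 2 rose and 2 fell, with a median of -0.17. Timp1 is given above, and Mmp9, gelatinase B, which is also on the neutrophil marker list, was at 1.21, 1.16 and 1.03 and 2.49, 2.17 and 2.33 FPKM (log2 fold change 1.01, SE 0.23, adjusted p = 0.0292). Its groups did not overlap, but the call was lost without TGF-β1 replicate 1, 2 or 3 or G-MDSC replicate 1, 2 or 3 (adjusted p 0.0633 to 0.0971). The neutrophil sum moved with it (3.05 to 8.58 against 1.14 to 1.398 FPKM, Mmp9 included), and the part of other cells' transcripts was not tested. The falls were Adamts2 (-0.25), lost without TGF-β1 replicate 1, 2 or 3 or G-MDSC replicate 1 or 3 (adjusted p 0.0791 to 0.0923), and Timp3 (-0.19), lost without TGF-β1 replicate 1 or 2 or G-MDSC replicate 1, 2 or 3 (adjusted p 0.0675 to 0.156).

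The lists also held genes of the TGF-β pathway itself. Of 34 measured targets and components 3 rose (8.82%) and 5 fell (14.7%), and the list median was -0.092. Tgfbr3, betaglycan, a co-receptor for TGF-β, was at 25.1, 22.4 and 23.7 FPKM untreated, 4.41, 3.03 and 3.84 with TGF-β1 and 6.19, 7.05 and 7.28 with the supernatant (log2 fold change 0.84, SE 0.12, adjusted p = 0.00211). Id2, an inhibitor of helix-loop-helix factors, was at 4.75, 4.58 and 4.61 and 7.55, 6.51 and 6.62 (log2 fold change 0.55, SE 0.084, adjusted p = 0.00315), below its untreated 15.3, 16.2 and 15.9. Both sat between the untreated and TGF-β1 levels without overlap. Bhlhe40 fell by 0.26 on the log2 scale. Cdkn1a (0.33), the cell cycle inhibitor p21, lost its call without TGF-β1 replicate 2 or 3 or G-MDSC replicate 1, 2 or 3 (adjusted p 0.0581 to 0.0748). The latent TGF-β binding protein Ltbp4 (-0.29) lost it without TGF-β1 replicate 1 or 2 or G-MDSC replicate 1 or 2 (adjusted p 0.111 to 0.185), and Ltbp3 (-0.24) without TGF-β1 replicate 1, 2 or 3 or G-MDSC replicate 1 or 2 (adjusted p 0.0739 to 0.120). Smad7, the inhibitory SMAD induced by TGF-β, was at 7.42, 10.3 and 11.4 and 11.1, 11.4 and 11.5 and did not pass (0.20, 95% interval -0.075 to 0.47).

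The Ras and ERK cascade and the IL-15 pathway were read because the study asked about them. Of 27 measured members of the Ras and ERK list 3 rose and none fell, with a list median of -0.043, and the 3 calls held whichever library was left out. Ier3, an immediate early target of ERK, went from 168, 174 and 189 to 261, 243 and 243 FPKM (log2 fold change 0.47, SE 0.065, adjusted p = 0.00161). Its groups did not overlap, and untreated cells were at 138, 144 and 143. Map2k1 (MEK1) rose by 0.37 and Fosl1 by 0.26. Nras, a Ras GTPase, did not pass (-0.30, 95% interval -0.80 to 0.21). RNA levels do not report the phosphorylation through which this cascade acts. Of 8 IL-15 pathway genes only Jak1, Stat5a and Stat5b passed the filter. None of these 3 passed edgeR's test at an adjusted p under 0.05, and 1 of them, Stat5a, a factor that IL-15 activates, had an unadjusted p under 0.05 (0.430, 0.393 and 0.561 against 0.732, 0.634 and 0.758 FPKM, log2 0.59, adjusted p = 0.0706). Stat5a passed without TGF-β1 replicate 3 (log2 0.77, adjusted p = 0.0298) and with DESeq2 (adjusted p = 0.0134). Il15 itself was at 0.0899, 0.0456 and 0.137 FPKM with TGF-β1, 0.298, 0.337 and 0.280 with G-MDSC supernatant and 0.308, 0.268 and 0.462 in untreated cells, all under the filter, so it was tested only with the filter taken away (log2 1.68, adjusted p = 0.0492). Its TGF-β1 libraries were the lowest and did not overlap with the others. Il15ra, the receptor chain that presents IL-15, lay between 0.163 and 0.262 in the 6 libraries, and its groups overlapped.

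In 3 metabolic lists most members did not pass. Cholesterol synthesis and uptake fell in 6 of 22 measured genes and rose in none, with a median of -0.24. Fdps, farnesyl diphosphate synthase, went from 28.5, 28.6 and 31.2 to 22.9, 21.9 and 21.5 FPKM (log2 fold change -0.44, SE 0.061, adjusted p = 0.00164), without overlap, and Cyp51 (-0.28) and Msmo1 (-0.27) likewise kept their falls whichever library was left out. Lss (-0.45) and Nsdhl (-0.36) lost theirs without TGF-β1 replicate 2 or 3, at adjusted p values from 0.0551 to 0.0732, and Pmvk (-0.36) without TGF-β1 replicate 2 (adjusted p 0.0506). ATF4 targets, which serve amino acid synthesis and uptake, fell in 5 of 24 and rose in none (median -0.15), with Pycr1, of proline synthesis (-0.50), and the transporter Slc1a4 (-0.35) falling whichever library was left out. Against untreated cells 20 of these 24 genes were higher with TGF-β1 alone, where 16.5% of all genes tested were. Of these 20, 19 were also higher with supernatant added, where 1441 of the 1913 such genes among all tested were. Both comparisons share the untreated libraries. Glycolysis and hypoxia genes rose in 5 of 21 and fell in 1 (median 0.16), led by the mitophagy receptor Bnip3 (0.55), the phosphofructokinase Pfkl (0.37) and Hif1a (0.30), the last lost without TGF-β1 replicate 2 or 3 or G-MDSC replicate 2 or 3 (adjusted p 0.0626 to 0.0885). Ldha, lactate dehydrogenase, rose by 0.27.

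In the lists of proliferation and stress few genes passed the test. Of 35 replication and mitosis genes 22 had all 3 G-MDSC libraries above all 3 TGF-β1 libraries and 1 had them below, where 12.4% and 9.83% of all tested genes did. At an adjusted p under 0.05 none of the 35 rose and 1 fell, Ccnd2 (-0.22), lost without TGF-β1 replicate 1 or 2 or G-MDSC replicate 1 or 2 (adjusted p 0.0921 to 0.143), and Mki67, a marker of cycling cells, had a log2 difference of 0.090 (95% interval -0.15 to 0.33). The list median was 0.081. Of 21 ER chaperones 1 fell, P4hb (-0.11), lost without TGF-β1 replicate 1, 2 or 3 or G-MDSC replicate 1, 2 or 3 (adjusted p 0.0695 to 0.228), with Hspa5 (BiP) at 0.067 (-0.070 to 0.20) and a median of -0.020. Of 22 antioxidant genes and metallothioneins 1 rose, Nqo1 (0.21), with Hmox1 at 0.057 (-0.029 to 0.14) and a median of 0.041. Among adipocyte genes 1 of 9 rose, the lipoprotein lipase Lpl (0.41), and 1 fell, Scd1 (-0.29), with a median of 0.025. Among 5 measured bone and cartilage genes, whose median was 0.097, Alpl rose. Alpl, the alkaline phosphatase of bone-forming cells, was at 7.05, 7.75 and 7.31 FPKM untreated, 0.619, 0.434 and 0.486 with TGF-β1 and 1.18, 1.54 and 1.49 with the supernatant (log2 fold change 1.43, SE 0.16, adjusted p = 3.75e-04), so that the supernatant level was above TGF-β1 alone and far below untreated. Alpl passed the filter through the untreated libraries alone, so a level with TGF-β1 lower than in untreated cells was built into its entry. Kidney makes Alpl as well, and the kidney and liver markers moved with it. Their part in the Alpl value was not tested. With M-MDSC supernatant Alpl was at 1.22, 1.41 and 1.70 FPKM, where the 10 kidney and liver markers summed to 18.2, 17.2 and 142. Runx2, the master factor of bone formation, did not pass (0.097, 95% interval -0.14 to 0.34).

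Several of the 15 largest rises and 15 largest falls are genes whose reads cannot be assigned with confidence. Rpl30-ps10, a processed pseudogene of a ribosomal protein, went from 6.87, 9.83 and 9.30 to 303, 363 and 325 FPKM (log2 fold change 5.23, SE 0.28, adjusted p = 6.43e-07), and untreated cells were at 207, 141 and 158. The pseudogenes Gm10420 (-2.00, lost without TGF-β1 replicate 1, 2 or 3 or G-MDSC replicate 2 or 3 at adjusted p 0.0608 to 0.134) and Gm46611 (-1.99, lost without TGF-β1 replicate 2 or 3 or G-MDSC replicate 1 or 3 at adjusted p 0.0809 to 0.0955) are processed copies of other genes. A930015D03Rik (-2.29, lost without TGF-β1 replicate 1 or 3 or G-MDSC replicate 1, 2 or 3 at adjusted p 0.0625 to 0.0761) and Gm48529 (-0.86) are antisense to other genes, and the strand setting of the counting is not given in the sources used here. Hmgb1 (-1.63) has many processed copies in the genome. Tmed2, a cargo receptor of the secretory pathway, was at 135, 136 and 119 FPKM with TGF-β1 and 60.7, 60.5 and 57.1 with G-MDSC supernatant (log2 fold change -1.15, SE 0.21, adjusted p = 0.00994). Its M-MDSC libraries, at 115, 61.7 and 135, reached both levels. Lrrc47 (-1.35) was lost without TGF-β1 replicate 2 or 3 or G-MDSC replicate 1, 2 or 3 (adjusted p 0.0690 to 0.132). Among the remaining falls the calls of Cmklr1, Pkp1, C1qtnf3 and Cadm4 held whichever library was left out. Cmklr1, the receptor of chemerin, went from 3.57, 3.54 and 3.45 to 1.92, 1.44 and 1.77 FPKM (log2 fold change -1.06, SE 0.13, adjusted p = 5.31e-04), with 1.84, 1.73 and 1.94 in untreated cells. The supernatant and untreated libraries overlapped. Pkp1, a plakophilin of desmosomes, went from 2.34, 3.09 and 2.37 to 1.51, 1.39 and 1.23 (log2 fold change -0.94, SE 0.17, adjusted p = 0.00725), still above untreated 0.226, 0.161 and 0.256. Pkp1 passed the filter through the TGF-β1 libraries alone, so the rise with TGF-β1 over untreated cells was built into its entry. C1qtnf3 fell by 0.99 and the adhesion molecule Cadm4 by 0.87 on the log2 scale, and Inhbb, an activin subunit (-0.91), was lost without TGF-β1 replicate 1 or 2 or G-MDSC replicate 1 or 2 (adjusted p 0.0749 to 0.0959).

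Between the G-MDSC and M-MDSC supernatants the number of genes that differed depended on the test. At an adjusted p under 0.05 in edgeR's test, 3 of the 11619 genes (0.0258%) were higher with G-MDSC than with M-MDSC supernatant and 14 (0.12%) were lower, and 731 had an unadjusted p under 0.05. With only these 2 groups fitted 6 were higher and 33 lower, with DESeq2 44 and 67, and with limma on log2(FPKM + 1) 7 and 22. The counts moved with single libraries: without G-MDSC replicate 1, 2 or 3 they were 3, 3 and 5 higher and 6, 8 and 12 lower, and without M-MDSC replicate 1, 2 or 3 they were 7, 8 and 5 higher and 8, 8 and 7 lower. Of the 41 antiviral effectors 37 had a lower estimate with G-MDSC supernatant and 8 passed, with a list median of -0.44 where the median over all genes was -4.57e-05. Isg15 was at 77.2, 76.5 and 67.5 FPKM with G-MDSC and 122, 121 and 117 with M-MDSC supernatant, and Bst2 at 421, 443 and 395 and 618, 615 and 584. These groups do not overlap, but both calls (adjusted p = 0.0424 and 0.0445) were lost without any single library of the 6, at adjusted p values up to 0.145 and 0.171. Ifit3 was at 12.3, 12.1 and 12.5 and 27.3, 30.5 and 31.9 (log2 fold change -1.28, SE 0.13, adjusted p = 0.00314) and Ifit1 at 23.5, 22.6 and 24.3 and 35.6, 38.8 and 37.5 (log2 fold change -0.67, SE 0.063, adjusted p = 0.00242). In both the M-MDSC libraries were all higher, whichever library was left out the call held, and reads of Ifit3 and Ifit3b can be shared. Tgtp2 (-1.38, lost without G-MDSC replicate 1 at adjusted p = 0.0531), Tgtp1 (-1.28), Ifit3b (-1.18) and Cmpk2 (-0.80) had the other largest differences, the last pair lost without any single library, at adjusted p values up to 0.112 and 0.132.

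The 3 genes that were higher with G-MDSC supernatant are of other kinds. Lif was at 3.55, 3.61 and 3.56 FPKM with G-MDSC and 2.12, 2.22 and 1.89 with M-MDSC supernatant (log2 fold change 0.78, SE 0.082, adjusted p = 0.00314). Psmd5, an assembly chaperone of the proteasome, was at 16.96, 16.1 and 15.4 with G-MDSC supernatant, 10.9, 10.6 and 11.3 with M-MDSC supernatant, 10.2, 9.66 and 10.5 with TGF-β1 and 11.04, 10.3 and 10.7 untreated (log2 fold change 0.56, SE 0.049, adjusted p = 0.00174 between the supernatants). Its G-MDSC libraries were the highest and the other 3 groups lay close together. Nfkbiz (0.54, adjusted p = 0.0298) lost its call in 5 of the 6 fits without a library, at adjusted p values up to 0.141. No gene of the contractile or matrix lists passed between the supernatants. For Acta2 the log2 difference between the supernatants was -0.076 (95% interval -0.19 to 0.043), for Tagln 0.0013 (-0.18 to 0.18), for Col6a3 -0.076 (-0.25 to 0.10) and for Postn -0.20 (-0.59 to 0.20). These intervals bound the differences and do not show that the supernatants act alike.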

How the data were processed

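RNA from mouse bone marrow MSCs was sequenced by the authors as 12 poly(A) libraries of paired reads, 3 in each of 4 groups. Per the submitters' processing notes, reads were trimmed with cutadapt 1.9, and the study's methods name fastp as a check of read quality. Per the notes and the methods, reads were aligned with HISAT2 2.0.4 to GRCm38 and assembled with StringTie 1.3.4d. The tool and strand setting that made the read counts are not given in the sources used here. The deposited table holds, for each gene and library, a whole-number count, which was not normalised by the authors, and an FPKM value, which the authors scaled by transcript length and library depth and wrote as 1e-04 where it was 0. Of the counts from 1 to 12, 44.3% were multiples of 4, so counts divided by 4 were tried as an alternative. Levels in the text are FPKM and fold changes come from counts.

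The 11619 genes were fitted with edgeR 4.0.16 (R 4.3.3), using TMM factors and a quasi-likelihood model of all 4 groups, which share 1 estimate of the spread. Contrasts were tested two-sided with Benjamini-Hochberg adjustment over all genes tested, and a gene was said to rise or fall at an adjusted p under 0.05. The SE of a log2 fold change is its size over the square root of F, and intervals are at 95%. The script was checked on simulated counts. Tests with limma 3.58.1 on log2(FPKM + 1) and log2(FPKM + 0.1), DESeq2 1.42.0, other scalings and filters, a replicate block, and fits without each library in turn served as alternatives. Total counts of 73977669 to 84565450 per library limit counting error, and replicates differed by 62.0 to 86.9 times the variance that counting alone gives. Tables used Python 3.11.15 and pandas 2.3.3.

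Genes were named by a rule: the 15 largest rises and 15 largest falls without overlap between libraries, all study marker genes, up to 6 passing and 3 other members of each list, and up to 5 genes in each direction between the supernatants. B2m, Cxcl12, Ifit1, Ifit2, Il11, Isg15, Itga3, Myd88, Tlr2 and Tpm1 were named outside it, after their values were seen. The members, the lists and the rule were chosen with earlier results of these data known. Promoters came from a RefSeq table of GRCm38.p6. The values of a few genes are not reported here, though counts of genes and of list members include them.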

Additional observations from a re-analysis of the deposited data

Results flagged for a closer look

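The M-MDSC supernatant served as the comparison here, because 17 genes differed between the supernatants by a test of the difference itself (edgeR, adjusted p under 0.05, 3 libraries against 3). Lower with G-MDSC than with M-MDSC supernatant were 14 genes, all of them higher with G-MDSC supernatant than with TGF-β1 alone. As log2 differences of G-MDSC minus M-MDSC, the GTPases differed by -1.38 (Tgtp2), -1.28 (Tgtp1), -0.72 (Gbp3) and -0.40 (Irgm1), and the Ifit genes by -1.28 (Ifit3), -1.18 (Ifit3b) and -0.67 (Ifit1). Cmpk2 differed by -0.80, Lgals9 by -0.78, Isg15 by -0.70, Tor3a by -0.57, Bst2 by -0.53, Parp12 by -0.45 and Ddx58 (RIG-I) by -0.35. Higher with G-MDSC supernatant were Lif (0.78), Psmd5 (0.56) and Nfkbiz (0.54). Ifit3, Tgtp1, Lgals9, Ifit1, Parp12, Irgm1, Psmd5 and Lif passed in each of the 6 fits that leave out 1 library. Tgtp2 was lost without G-MDSC replicate 1 (adjusted p = 0.0531), Ifit3b, Cmpk2, Gbp3, Isg15, Tor3a and Bst2 were lost without any 1 of the 6 libraries (adjusted p up to 0.199), and Ddx58 and Nfkbiz were lost in 5 of the 6 fits.

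Transcripts outside the gene filter also stood out. There were 48 genes with an FPKM of at least 1 in all 3 G-MDSC libraries and of at most 0.1 in all 6 libraries without supernatant. Their FPKM summed to 234, 245 and 252 in the 3 G-MDSC libraries. In the M-MDSC libraries the sum was 46.3, 61.4 and 258, and 6, 7 and 46 of the 48 genes reached an FPKM of 1 in replicates 1, 2 and 3. Besides Alb and Kap they include Gpx3, a plasma glutathione peroxidase made mainly in the kidney, at 25.5, 22.96 and 26.5 FPKM with G-MDSC supernatant, 17.4, 30.2 and 25.1 with M-MDSC supernatant and at most 0.0626 without either. How these transcripts came into the libraries was not tested.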

How the results depend on the processing

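Against the 132 higher and 27 lower genes by the study's rule and the 312 and 277 at an adjusted p under 0.05, most alternatives stayed within 1.5 times. By the study's rule, counting FPKM of 1 over all 12 libraries gave 228 higher genes, an FPKM minimum of 5 gave 57 higher and 10 lower, no filter gave 1072 and 186, limma on log2(FPKM + 1) gave 13 lower, and also requiring an adjusted p under 0.05 left 8 lower. At an adjusted p under 0.05, no filter gave 527 higher, the 2 groups alone gave 139 lower, DESeq2 gave 472 and 422, and an adjusted p under 0.01 left 108 lower. Between the supernatants (3 higher, 14 lower) the 2 groups alone gave 6 and 33, DESeq2 44 and 67, and limma on log2(FPKM + 1) 7 and 22. Fits without 1 library gave 30 to 42 lower by the study's rule (42 without G-MDSC replicate 3), 130 to 238 lower by adjusted p, and 3 to 8 higher and 6 to 12 lower between the supernatants. The replicate numbers are not stated to pair the cultures. Same-numbered TGF-β1 and G-MDSC libraries deviated together with correlations of 0.0456, 0.0598 and 0.0349, and a replicate block gave 135 and 32 by the study's rule, 274 and 214 by adjusted p, and 2 and 10 between the supernatants. Of 250 genes followed through the alternatives in which each was tested, 168 kept their direction and side of the threshold, 75 that passed lost the call under at least 1, 7 that did not pass gained it (all 7 with DESeq2), and none changed sign. The cause was not tested for any of these shifts, beyond the number of genes or libraries each setting uses. The low levels of Il15 and C4b limit what their counts can show.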

Other observations

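Genes outside the lists, named here after their values were seen, extend the groups described. Lgals9, galectin 9, was at 1.33, 1.07 and 1.03 FPKM with TGF-β1 and 9.10, 8.99 and 8.26 with G-MDSC supernatant (log2 fold change 2.92, SE 0.10, adjusted p = 2.26e-08). Its groups did not overlap, and untreated cells were at 9.95, 10.6 and 10.6. The ubiquitin ligase and antibody receptor Trim21 (2.46), the ADP-ribosyltransferase Parp10 (2.33), Nmi, a STAT-interacting protein (2.13), and Helz2 (2.12) also rose (edgeR, adjusted p = 4.89e-08, 1.10e-06, 4.79e-07 and 2.54e-05).

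Secreted factors changed in both directions. Fgf7, keratinocyte growth factor, was at 36.04, 33.3 and 38.2 FPKM untreated, 10.3, 8.70 and 9.59 with TGF-β1, 17.99, 18.04 and 19.1 with G-MDSC and 11.4, 13.6 and 13.5 with M-MDSC supernatant (log2 fold change 0.92, SE 0.084, adjusted p = 5.91e-05 for G-MDSC supernatant against TGF-β1). Its 4 groups did not overlap. Serpine2, a protease inhibitor also called protease nexin, rose by 0.65 (adjusted p = 3.75e-04), and Hbegf, a ligand of the EGF receptor, fell by 0.37 on the log2 scale (adjusted p = 5.24e-04).

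Several transcription factors and surface genes fell whichever library was left out. Scx, scleraxis, the tendon factor, went from 12.3, 12.7 and 13.6 to 9.63, 9.27 and 9.18 FPKM (log2 fold change -0.48, SE 0.079, adjusted p = 0.00478), and Foxs1 from 35.6, 37.7 and 37.4 to 25.6, 28.2 and 26.3 (log2 fold change -0.49, SE 0.069, adjusted p = 0.00176). Neither gene's groups overlapped. Egr2 fell by 0.71, the damage-inducible Gadd45a by 0.64, the gap junction gene Gjb2 by 0.68, Cd248 (endosialin), a surface protein of activated stromal cells, by 0.55, and Csrp1, an actin-associated LIM protein, by 0.30 on the log2 scale.

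Selenop, the selenium carrier of plasma made mainly by the liver, rose from 1.59, 1.38 and 1.52 FPKM with TGF-β1 to 4.58, 5.36 and 5.05 with G-MDSC supernatant (log2 fold change 1.71, SE 0.34, adjusted p = 0.0137), a call lost without TGF-β1 replicate 2 or 3 (adjusted p 0.0514 to 0.0636). With M-MDSC supernatant it was at 1.98, 1.99 and 5.56, highest in replicate 3, the library with Alb. The complement gene C4b rose from 0.239, 0.191 and 0.275 to 0.750, 0.799 and 0.681 (log2 fold change 1.63, SE 0.19, adjusted p = 3.96e-04). The 10 kidney and liver markers moved with both genes, and their part was not tested.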
